A study of Homo sapiens with 12 samples.

Results

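Arrays of U2OS cells depleted of the corepressor SMRT and exposed to cisplatin (CDDP) were set directly against arrays of U2OS cells depleted of NCoR and exposed to the same drug: 2 arrays of siSMRT+CDDP and 2 of siNCoR+CDDP, chosen by their titles, 4 of the 12 arrays in the series. No control siRNA array enters the difference itself, but all 12 arrays share the normalisation, the filter on signal and the estimate of spread behind each p-value. U2OS is a human osteosarcoma line. The cells were transfected with siRNA, kept 2 days in complete medium and then given 100 µM CDDP for 6 h, and biological duplicates were profiled on one-colour Illumina arrays. The remaining groups, also of 2 arrays each, are siCtl+CDDP, which received a scramble siRNA, and the siSMRT, siNCoR and siCtl cells labelled no-treatment, so all 12 arrays share the transfection. Each target was silenced with a mix of several siRNAs in 1 cell line, so the loss of the target and any other action of its siRNA mix cannot be told apart.

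NCoR and SMRT are related scaffold proteins that carry no DNA-binding domain of their own. They are brought to genes by unliganded nuclear receptors, AP-1, NF-kB, Notch effectors, BCL6 and other factors, and they hold HDAC3, TBL1, TBLR1 and GPS2 in a complex that removes acetyl groups from histones and lowers transcription. CDDP crosslinks DNA and activates the ATM, Chk2 and p53 checkpoint, after which many genes are repressed and others, including p53 targets, are induced.

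Values are log2 of the normalised probe intensity, where 1 unit is a doubling. A gene is read from 1 probe, and it was tested where that probe's signal was over a floor of 100 in both arrays of at least 1 of the 6 groups. Differences are siSMRT+CDDP minus siNCoR+CDDP, with a standard error (SE) and a p-value from a limma fit over all 12 arrays, adjusted by the Benjamini-Hochberg method over the 9808 genes tested. A gene is called where the adjusted p is under 0.05. The 12 arrays had median raw signals of 54 to 65.3 with 27% to 31.4% of probes over the floor, and the 2 arrays of a group correlated at 0.994 to 0.996. Of 14 osteosarcoma and mesenchymal markers 13 were tested, and SPP1 (-2.23) was the 1 called, lower (7.69%, against 16.2% of all genes tested). The replicate block called CD44 (-0.40) and SPARC (-0.32) lower and CDH11 (0.35) higher as well. Of 18 markers of other cell types 6 were tested, and limma called 0, with 2 at an unadjusted p under 0.05 and VWF (0.53) called under the replicate block. Their mean level was 9.04 and 9.06 in siSMRT+CDDP arrays against 8.98 and 8.99 in siNCoR+CDDP arrays, with the epithelial keratins KRT8 and KRT18 well above the floor in all 4, and KRT18 at 13.96 and 13.88 against 13.66 and 13.79. Other KRT18 probes went the opposite way (-0.25 and -0.24, against 0.19 for this probe), and none was called.

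Under CDDP, SMRT-depleted and NCoR-depleted cells differed at 1588 genes, 16.2% of those tested. Relative to NCoR depletion, SMRT depletion left 714 genes higher (7.28%) and 874 lower (8.91%), and 8220 did not pass. By size, 30 were higher and 59 lower by at least 1 log2 unit. The highest relative to siNCoR+CDDP were MTX2, USP48, APOBEC3B and TCN1, and the lowest SPP1, OLR1 and STMN2. All 1588 had no overlap between the 2 groups, and the groups did not overlap for 56.9% of all genes tested. Without overlap the direction is the same in both same-numbered pairs of arrays. The calls come from these same arrays, so this is not a separate replication. Calls depend on having both arrays of each group: 331 were higher and 496 lower without siSMRT+CDDP replicate 1, 396 and 513 without siSMRT+CDDP replicate 2, and 429 and 486 without siNCoR+CDDP replicate 1. Of the 1588 called genes, 45% were higher, and with median in place of quantile scaling of the arrays 59.5% of 1018 were. With the replicate number as a block, 1066 were higher (10.9%) and 1187 lower (12.1%).

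**Figure D1:**
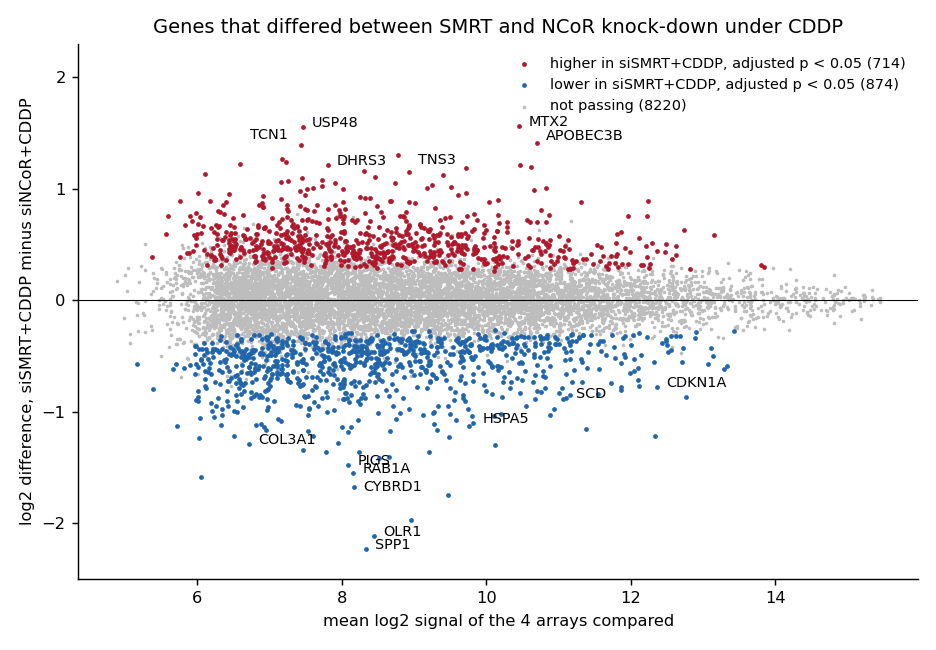
Each point is 1 of the 9808 genes; the x axis gives the mean log2 signal of the 4 arrays, the y axis the log2 difference of siSMRT+CDDP minus siNCoR+CDDP, and colour marks the 714 genes higher and the 874 lower at an adjusted p under 0.05. Called genes run over the whole range of signal, and the points past 1 unit lie more often below 0 (59) than above it (30).

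Sequences are shown for 5 promoters to set a promoter element beside the measured difference. For the first 3, members of the unfolded protein response, the element is the pair CCAAT and CCACG with a gap of 9 bases, on either strand, the endoplasmic reticulum stress element, in which the general factor NF-Y binds CCAAT and the stress factor ATF6 binds CCACG, and capitals mark both parts of it. For the other 2, among the genes with the largest rise, the capitals mark AGGTCA or its complement TGACCT, the half-site bound by nuclear receptors. Sequences are from RefSeq (GRCh38.p14), read 5′ to 3′ on the gene's strand, 250 bases before to 50 after the start of the gene.
HSPA5 (chr9:125241294-125241593, minus strand): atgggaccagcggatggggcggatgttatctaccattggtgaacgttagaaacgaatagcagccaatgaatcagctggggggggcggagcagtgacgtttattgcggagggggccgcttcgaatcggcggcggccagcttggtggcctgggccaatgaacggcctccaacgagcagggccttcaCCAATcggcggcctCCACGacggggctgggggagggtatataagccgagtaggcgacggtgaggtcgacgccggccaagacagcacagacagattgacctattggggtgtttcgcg
HSP90B1 (chr12:103930160-103930459, plus strand): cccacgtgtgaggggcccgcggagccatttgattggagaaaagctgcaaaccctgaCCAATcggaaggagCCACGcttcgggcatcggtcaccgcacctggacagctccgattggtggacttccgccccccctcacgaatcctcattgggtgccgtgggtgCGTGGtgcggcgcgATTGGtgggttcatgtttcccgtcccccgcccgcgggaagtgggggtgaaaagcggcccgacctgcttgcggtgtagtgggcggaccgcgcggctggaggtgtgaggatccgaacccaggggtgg
XBP1 (chr22:28800520-28800819, minus strand): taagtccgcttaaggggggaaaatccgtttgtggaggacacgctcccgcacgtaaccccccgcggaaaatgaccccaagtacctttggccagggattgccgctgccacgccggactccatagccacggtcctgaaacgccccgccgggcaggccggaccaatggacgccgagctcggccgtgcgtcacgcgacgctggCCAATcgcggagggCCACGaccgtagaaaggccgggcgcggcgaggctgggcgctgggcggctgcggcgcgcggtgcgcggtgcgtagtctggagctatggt
TM4SF18 (chr3:149333587-149333886, minus strand): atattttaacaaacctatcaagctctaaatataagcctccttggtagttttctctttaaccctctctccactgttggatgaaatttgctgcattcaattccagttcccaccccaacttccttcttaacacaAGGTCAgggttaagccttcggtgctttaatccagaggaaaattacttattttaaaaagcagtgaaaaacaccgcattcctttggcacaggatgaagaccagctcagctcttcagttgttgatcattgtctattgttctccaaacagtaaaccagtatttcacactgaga
TNS3 (chr7:47582537-47582836, minus strand): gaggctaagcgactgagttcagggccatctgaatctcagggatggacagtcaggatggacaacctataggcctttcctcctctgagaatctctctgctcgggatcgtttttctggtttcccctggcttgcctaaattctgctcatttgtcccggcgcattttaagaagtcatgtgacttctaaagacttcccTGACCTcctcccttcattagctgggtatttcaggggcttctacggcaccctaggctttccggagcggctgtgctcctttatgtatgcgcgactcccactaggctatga
The CCAAT and CCACG pair, searched for after the values were known, is in 22 of 27305 promoters in the table (0.0806%) and in 13 of the 8075 promoters matched to genes tested (0.161%). Among called genes it is in 1 of 715 promoters of those lower in siSMRT+CDDP cells (0.14%) and in 0 of 581 of those higher. In the unfolded protein response list the pair is in 3 of 18, the 3 printed here. Its first base lies at position -66 in HSPA5, at -194 and at -89 (minus strand) in HSP90B1 and at -52 in XBP1, counted from the start site. The 3 genes that hold it differed in their results: HSPA5 was lower in siSMRT+CDDP cells (-1.10), HSP90B1 differed by -0.07 (adjusted p = 0.677) and XBP1 by -0.20 (adjusted p = 0.225). PDIA4, which was lower, has no such pair in its window.

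Of the 5 short motifs searched, CCAAT was the most common. It also had the widest gap, in percentage points, between genes higher and genes lower in siSMRT+CDDP cells. No motif difference was tested. AGGTCA (either strand) is in 9.12% of the promoters of genes higher in siSMRT+CDDP cells, 9.65% of those lower, 9.6% of those tested and 13.9% of all in the table. In TM4SF18 and TNS3 it begins at -119 and -58. Genes lower in siSMRT+CDDP cells hold AGGTCA too, among them HSPA5 at 29 (minus strand, in lower case above) and PMEPA1 at -130 (minus strand). The AP-1 site TGACTCA (either strand) is in 2.75% of higher, 3.64% of lower, 3.18% of tested and 4.92% of all promoters. The E-box CACGTG is in 7.75% of higher, 9.51% of lower, 10.6% of tested and 7.43% of all. TTCCTGG (or CCAGGAA), the core of a BCL6 site, is in 8.78%, 10.3%, 8.62% and 10% of the same 4 sets. CCAAT (or ATTGG), a common promoter box that also lies inside the pair above, is in 41.5% of higher, 32.7% of lower, 37.6% of tested and 35.7% of all promoters. These are counts of letters in a short window, with 581 promoters of higher genes and 715 of lower genes.

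Among the genes higher in siSMRT+CDDP cells, MTX2 and USP48 had the largest differences, and for both the siSMRT arrays were near the control siRNA arrays and the siNCoR arrays below them. MTX2, a subunit of the mitochondrial outer membrane sorting machinery, was at 11.21 and 11.27 in siSMRT+CDDP arrays against 9.76 and 9.59 in siNCoR+CDDP arrays, with siCtl+CDDP at 11.05 and 11.17. Both siNCoR arrays lay below all others (difference 1.57, SE 0.0996, limma adjusted p = 1.27e-05; a second MTX2 probe gave 1.51). USP48, a deubiquitinase, was at 8.28 and 8.20 in siSMRT+CDDP arrays against 6.88 and 6.49 in siNCoR+CDDP arrays, and 8.19 and 8.09 in siCtl+CDDP arrays (1.56, SE 0.121, adjusted p = 2.31e-05). Its other probes did not share the difference (0.23 and 0.01, neither called). ARHGAP19, a GTPase activator for RhoA, and TNS3, a focal adhesion tensin, had the same layout: 1.24 and 1.15 higher than with siNCoR, 0.27 and 0.04 from siCtl+CDDP in siSMRT cells (neither called), and -0.97 and -1.12 from siCtl+CDDP in siNCoR cells (both called).

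Other genes stood apart from the control siRNA in siSMRT cells, in some cases with the siNCoR arrays on the opposite side. DHRS3, a retinaldehyde reductase induced by retinoic acid, was at 8.45 and 8.38 in siSMRT+CDDP arrays against 7.25 and 7.15 in siNCoR+CDDP arrays, and 7.52 and 7.48 in siCtl+CDDP arrays (1.22, SE 0.104, adjusted p = 4.09e-05). It was 0.92 above siCtl+CDDP with siSMRT (adjusted p = 0.000351) and -0.30 from it with siNCoR (adjusted p = 0.113). APOBEC3B, a DNA cytosine deaminase, was at 11.45 and 11.36 in siSMRT+CDDP arrays against 10.01 and 9.98 in siNCoR+CDDP arrays, with 10.67 and 10.64 in siCtl+CDDP arrays between them (1.41, SE 0.102). Its family members are close in sequence, and whether the probe separates them was not tested. The mitochondrial adenylate kinase AK4 was at 11.01 and 11.15 in siSMRT+CDDP arrays against 9.91 and 9.83 in siNCoR+CDDP arrays, and 10.50 and 10.48 in siCtl+CDDP arrays (1.22, SE 0.0903), and 2 of its other probes gave 0.90 and 0.998 while another gave 0.11.

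The rest of the 14 largest rises covered 1.16 to 1.40 units. TCN1, the vitamin B12 carrier haptocorrin, was at 8.07 and 8.18 in siSMRT+CDDP arrays against 6.40 and 7.06 in siNCoR+CDDP arrays (1.40, SE 0.215, adjusted p = 0.00119). The siSMRT arrays agreed more closely than the siNCoR arrays did, without overlap. TM4SF18, a 4-span membrane protein whose siNCoR+CDDP signal was under the floor in both arrays, was at least 1.9-fold higher in siSMRT+CDDP cells. OSBPL8, a lipid transfer protein of membrane contacts (1.30), was called by its brighter probe and not by the other (-0.14). ATP8A1, a phospholipid flippase (1.26), ABCB9, a lysosomal peptide transporter (1.19), TPST1, a tyrosylprotein sulfotransferase (1.18), and COLEC12, a scavenger receptor (1.16), complete the set, and each call held in all 24 alternatives run.

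Among the genes lower in siSMRT+CDDP cells, SPP1 led. SPP1, the bone matrix protein osteopontin, was at 7.41 and 7.01 in siSMRT+CDDP arrays against 9.56 and 9.33 in siNCoR+CDDP arrays, with siCtl+CDDP between them at 8.20 and 7.88. The gap was -2.23 (SE 0.188, adjusted p = 3.59e-05; -2.11 for a second probe), made of -0.83 from siCtl+CDDP in siSMRT cells (adjusted p = 0.0122) and 1.41 in siNCoR cells (adjusted p = 0.00153). OLR1, a receptor for oxidised lipoprotein, was at 7.41 and 7.37 in siSMRT+CDDP arrays against 9.92 and 9.09 in siNCoR+CDDP arrays, and 8.69 and 8.09 in siCtl+CDDP arrays (-2.12, SE 0.293, adjusted p = 0.000613). STMN2, a regulator of microtubules, was at 7.91 and 8.05 in siSMRT+CDDP arrays against 9.83 and 10.07 in siNCoR+CDDP arrays (-1.97, SE 0.226), and 8.24 and 8.84 in siCtl+CDDP arrays. For the 3 genes no siSMRT array reached a siNCoR array.

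A second set was lower than siCtl+CDDP in siSMRT cells, and its siNCoR arrays lay at or above that level (each knock-down is set against the same siCtl+CDDP arrays). CYBRD1, a ferric reductase, was at 7.24 and 7.43 in siSMRT+CDDP arrays against 8.92 and 9.10 in siNCoR+CDDP arrays, and 8.93 and 9.19 in siCtl+CDDP arrays (-1.68, SE 0.115, adjusted p = 1.27e-05). SLC40A1, the iron exporter ferroportin, was at 8.09 and 7.80 in siSMRT+CDDP arrays against 9.58 and 9.12 in siNCoR+CDDP arrays, and 9.43 and 9.05 in siCtl+CDDP arrays (-1.41, SE 0.169). Both iron handling genes were within 0.12 units of siCtl+CDDP in siNCoR cells. PIGS, a subunit of the GPI transamidase (-1.48), and ARL1, a Golgi GTPase (-1.36), had differences from siCtl+CDDP of -1.50 and -1.20 in siSMRT cells and of -0.02 and 0.16 in siNCoR cells. RAB1A, a GTPase of transport from the endoplasmic reticulum to the Golgi, was at 7.31 and 7.45 in siSMRT+CDDP arrays against 8.93 and 8.93 in siNCoR+CDDP arrays, and 8.58 and 8.37 in siCtl+CDDP arrays (-1.56, SE 0.104). Its differences from siCtl+CDDP were -1.09 with siSMRT and 0.46 with siNCoR, both called. REEP5, which shapes tubules of the endoplasmic reticulum (-1.36), and MTMR9, a myotubularin family member (-1.34), were lower too.

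Other genes were higher in siNCoR cells than in siCtl+CDDP cells. EFR3B, an anchor of a phosphatidylinositol kinase at the plasma membrane, was at 7.75 and 7.87 in siSMRT+CDDP arrays against 9.02 and 9.43 in siNCoR+CDDP arrays, and 7.98 and 7.82 in siCtl+CDDP arrays (-1.42, SE 0.139). The trypsin inhibitor SPINK1 was under the floor in both siSMRT+CDDP arrays and at least 1.48-fold lower there than in siNCoR+CDDP arrays. CGB5, from the chorionic gonadotropin beta cluster whose copies are nearly identical, differed by -1.36, and DEFB103B, a duplicated beta-defensin gene with siSMRT+CDDP at 8.32 and 8.85 against siNCoR+CDDP at 9.66 and 11.01 and siCtl+CDDP at 7.13 and 8.53, by -1.75 (SE 0.535, adjusted p = 0.0442), so for both the source of the signal is uncertain. The DEFB103B call was lost in 6 alternatives, among them those without siSMRT+CDDP replicate 1 (-1.48, adjusted p = 0.215), siSMRT+CDDP replicate 2 (-2.01, adjusted p = 0.089) and siNCoR+CDDP replicate 2 (-1.07, adjusted p = 0.259).

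**Figure D2:**
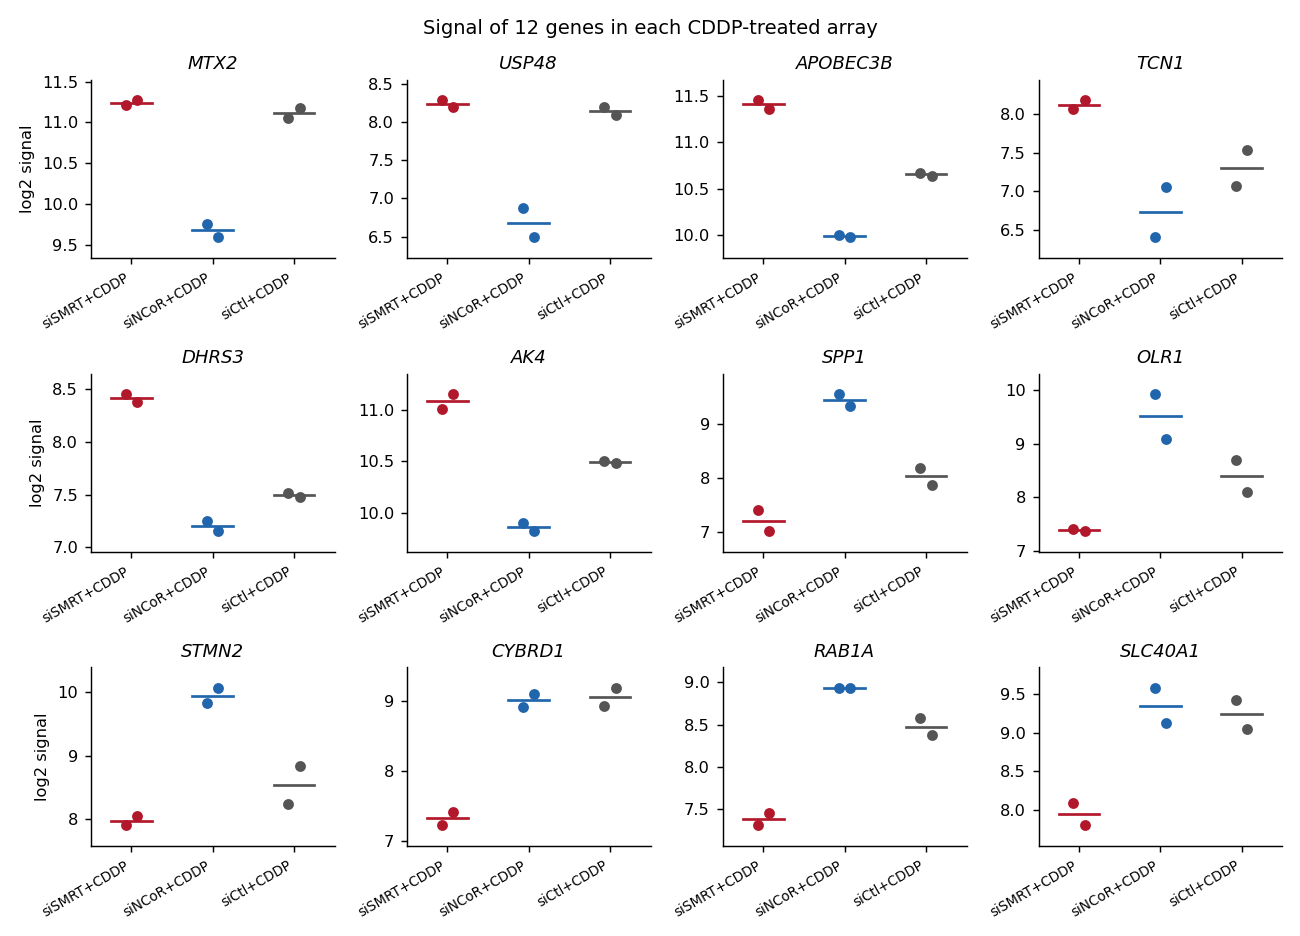
Log2 signal (y axis, a separate range in each panel) of 12 genes in the 2 arrays each of siSMRT+CDDP, siNCoR+CDDP and siCtl+CDDP (x axis); points are arrays and bars are group means. In every panel the 2 siSMRT arrays and the 2 siNCoR arrays are apart, and siCtl lies level with siSMRT for MTX2 and USP48, level with siNCoR for CYBRD1 and SLC40A1, and between them for the others.

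The corepressor complex partners HDAC3, TBL1X, GPS2 and CORO2A gave 0 calls in limma, with 1 at an unadjusted p under 0.05, and none of the 4 was called under any of the 24 alternatives. HDAC3, the deacetylase of the complex, was at 9.70 and 9.70 in siSMRT+CDDP arrays against 9.71 and 9.54 in siNCoR+CDDP arrays (0.08, 95% interval from -0.14 to 0.29). TBL1X, a WD40 subunit, differed by 0.25 (95% interval 0.06 to 0.44, adjusted p = 0.0769). Of 19 other deacetylases and corepressors, 2 were higher (TLE3, a Groucho repressor, 0.42, and LCOR, a nuclear receptor corepressor, 0.35) and 2 lower (HDAC1 -0.38 and HDAC6 -0.35), 21.1% of the list against 16.2% of all genes tested, with a median of 0.01 for the list and of 0.01 for all genes. The list had 0 higher without siSMRT+CDDP replicate 2 or siNCoR+CDDP replicate 2, 1 higher without either of the other 2 arrays, and 0 lower without either siSMRT+CDDP array. HDAC1 was at 12.22 and 12.26 in siSMRT+CDDP arrays against 12.62 and 12.62 in siNCoR+CDDP arrays, but was not called with median scaling (-0.24, adjusted p = 0.296), nor without siSMRT+CDDP replicate 1 (-0.36, adjusted p = 0.0831), siSMRT+CDDP replicate 2 (-0.40, adjusted p = 0.0555) or siNCoR+CDDP replicate 1 (-0.38, adjusted p = 0.0621).

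Nuclear receptors and their targets, which use both corepressors, gave calls in both directions. Of 14 receptors tested, RORA was the 1 called (7.14%, against 16.2% of all genes tested), with NR2C2 (0.32) added under the replicate block. RORA was at 7.70 and 7.64 in siSMRT+CDDP arrays against 6.84 and 6.80 in siNCoR+CDDP arrays, with 6.81 and 6.93 in siCtl+CDDP arrays (0.85, SE 0.0964, adjusted p = 0.000202). Of its 4 probes, 2 gave 0.85 and 0.86 and 2 were not called (0.23 and -0.16). Of 16 target genes 4 were higher (25%, against 7.28% of all genes tested) and 2 lower (12.5%, against 8.91%), with a list median of 0.06. Besides DHRS3, higher members were CRABP2, a retinoic acid carrier (0.70), TGM2, a transglutaminase induced by retinoic acid (0.81), and FKBP5, a glucocorticoid receptor target (0.52). The lower members were the liver X receptor targets SREBF1 (-0.53) and ABCA1 (under the floor in all 4 arrays, so that no difference is given, and not called without siNCoR+CDDP replicate 1, where no member was lower). Without siSMRT+CDDP replicate 1, siSMRT+CDDP replicate 2 or siNCoR+CDDP replicate 2 the list had 2 higher members each, CRABP2 being at 0.56 (adjusted p = 0.111) without the first and FKBP5 at 0.51 (adjusted p = 0.0517) without the next, and both at 0.53 and 0.38 (adjusted p = 0.0902 and 0.0646) without the last.

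NF-kB genes and targets, another group that uses SMRT, had a list median of 0.24, with 3 of 15 higher and 2 lower. These were 20% and 13.3% of the list, against 7.28% and 8.91% of all genes tested. Without CDDP the list median was 0.48, with 7 higher and 0 lower, against 8.34% and 10.5% of all genes tested. SOD2, the mitochondrial superoxide dismutase, was at 12.34 and 12.33 in siSMRT+CDDP arrays against 11.56 and 11.60 in siNCoR+CDDP arrays, and 11.57 and 11.67 in siCtl+CDDP arrays. Its siSMRT arrays were above the other 4 (0.76, SE 0.0973, adjusted p = 0.000367; a second probe gave 0.70). The chemokine CCL20 (0.81, SE 0.209) and the subunit REL (under the floor in all 4 arrays, with no difference given) were higher, while NFKB1, which encodes the p50 precursor (-0.50), and the cytokine IL1A (-0.39) were lower. The replicate block raised the number higher to 5. Without siSMRT+CDDP replicate 2 only 1 member was higher and 0 lower, with CCL20 at 0.65 (adjusted p = 0.147), NFKB1 at -0.57 (adjusted p = 0.0568) and IL1A at -0.40 (adjusted p = 0.083), and NFKB1 and IL1A were not called with median scaling either (adjusted p = 0.0754 and 0.124), nor without siSMRT+CDDP replicate 1 (adjusted p = 0.157 and 0.105) or siNCoR+CDDP replicate 2 (adjusted p = 0.135 and 0.109). Without siNCoR+CDDP replicate 1 the list had 1 higher member, with CCL20 at 0.66 (adjusted p = 0.137). AP-1 and immediate-early genes gave 0 calls of 22 in limma, with 1 at an unadjusted p under 0.05 and a median of -0.08 that turned to 0.04 under median scaling, and with EGR1 at -0.40 (adjusted p = 0.244) and NR4A2 at 0.44 (adjusted p = 0.127).

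CDKN1A, the p53-induced inhibitor of cyclin-dependent kinases, was at 11.94 and 12.03 in siSMRT+CDDP arrays against 12.77 and 12.75 in siNCoR+CDDP arrays, and 12.88 and 12.90 in siCtl+CDDP arrays. Both siSMRT arrays lay below all 4 others (-0.77, SE 0.0859, adjusted p = 0.000189), but a second, dimmer probe gave -0.01. TP53INP1, a stress-induced p53 target, was at 6.99 and 7.14 in siSMRT+CDDP arrays against 7.80 and 7.84 in siNCoR+CDDP arrays (-0.76, SE 0.124). These were the only 2 calls among 24 p53 targets tested, 8.33% against 16.2% of all genes tested. The list median was -0.04 (0.03 under median scaling). CDDP itself left CDKN1A 1.03 higher in siSMRT cells, 0.95 in siNCoR cells and 1.05 in siCtl cells.

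Of 21 pro-apoptotic genes 2 were higher and 2 lower, 9.52% each, near the 7.28% and 8.91% of all genes tested. BCL2L11, which encodes the BH3-only protein BIM, was at 8.32 and 8.27 in siSMRT+CDDP arrays against 7.84 and 7.53 in siNCoR+CDDP arrays, and 7.45 and 7.63 in siCtl+CDDP arrays. The difference was 0.61 (SE 0.138, adjusted p = 0.0102), and other probes gave 0.96 and 0.62. It was not called without siSMRT+CDDP replicate 1 (0.59, adjusted p = 0.0659) or siNCoR+CDDP replicate 2 (0.45, adjusted p = 0.079). BNIP3, a mitophagy receptor, was at 10.44 and 10.40 in siSMRT+CDDP arrays against 11.24 and 11.18 in siNCoR+CDDP arrays (-0.79, SE 0.1, adjusted p = 0.000356). BIK, another BH3-only gene (0.38), was higher, and BNIP3L, a relative of BNIP3 (-0.55), lower. BIK was not called without siSMRT+CDDP replicate 1 (0.29, adjusted p = 0.146) or siNCoR+CDDP replicate 1 (0.36, adjusted p = 0.0853), nor BNIP3L without siSMRT+CDDP replicate 2 (-0.45, adjusted p = 0.0908) or siNCoR+CDDP replicate 1 (-0.47, adjusted p = 0.0778). Of the other genes the study followed for apoptosis, FOS differed by 0.09 (95% interval -0.42 to 0.60), SMAD7 by -0.05 (-0.40 to 0.30), MAX by 0.22 (-0.03 to 0.46), SRPK2 by 0.34 (0.03 to 0.65, adjusted p = 0.127) and PPM1D, the phosphatase Wip1, by -0.10 (-0.35 to 0.15), none called. The study measured these genes by RT-qPCR with siSMRT against scramble siRNA, not against siNCoR. In that measure it reported that SMRT held PPM1D down. PPM1D was at 10.03 and 10.16 in siSMRT+CDDP arrays against 10.24 and 10.16 in siNCoR+CDDP arrays, and both groups were below siCtl+CDDP at 10.91 and 10.90. Anti-apoptotic genes gave 0 calls of 10 in limma, with 2 at an unadjusted p under 0.05, and BAG3 (-0.30) was called lower under the replicate block.

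Cell-cycle genes had medians above that of all genes, with CDDP and without it. Without CDDP, 7 G2/M genes were higher and 1 lower (median 0.18), and 8 G1/S genes higher and 0 lower (median 0.25). Of all genes tested, 8.34% were higher and 10.5% lower without CDDP. The other values given here are with CDDP. Of 33 G2/M and mitosis genes 8 were higher (24.2%, against 7.28% of all genes tested) and 1 lower (3.03%, against 8.91%). Of the 33 differences, 27 were above 0 (median 0.22). FOXM1, the transcription factor of the G2/M program, was at 10.48 and 10.56 in siSMRT+CDDP arrays against 9.74 and 9.92 in siNCoR+CDDP arrays, and 10.28 and 10.12 in siCtl+CDDP arrays. It was above all others with siSMRT and below all others with siNCoR (0.69, SE 0.101, adjusted p = 0.000896; second probe 0.56). CDC25C, the phosphatase that activates CDK1 (0.59), the spindle factor TPX2 (0.45) and CDCA3 (0.44) were higher, and the kinetochore gene CENPF lower (-0.45, and -0.37 without siSMRT+CDDP replicate 1, adjusted p = 0.0814). Of 30 G1/S and replication genes 5 were higher (16.7%, against 7.28% of all genes tested) and 0 lower, with 26 differences above 0 and a median of 0.22. The 5 were the helicase genes MCM6 (0.44), MCM5 (0.40), MCM2 (0.32) and CDC45 (0.32) and the DNA methylation cofactor UHRF1 (0.34). The replicate block gave 8 higher. Without siNCoR+CDDP replicate 2 the medians were 0.10 for G2/M and 0.10 for G1/S genes. With 1 array left out, 3 G2/M genes were higher without either siSMRT+CDDP array or siNCoR+CDDP replicate 2 and 5 without siNCoR+CDDP replicate 1, while 1 G1/S gene was higher without siSMRT+CDDP replicate 1 or siNCoR+CDDP replicate 2 and 0 without siSMRT+CDDP replicate 2. The checkpoint kinase CHEK1 (0.33) and the translesion polymerase REV1 (0.38) were the 2 called of 14 repair genes, 14.3% against 16.2% of all genes tested. CHEK1, at an adjusted p of 0.0469, passed in only 9 of 24 alternatives. Neither gene was called with no filter on signal or with only the arrays compared. Without siNCoR+CDDP replicate 2 CHEK1 was at 0.19 and REV1 at 0.30. CHEK2, the kinase Chk2, was at 9.42 and 9.34 in siSMRT+CDDP arrays against 9.31 and 9.33 in siNCoR+CDDP arrays (0.06, 95% interval -0.13 to 0.26).

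Sterol and fatty acid synthesis ran the other way, with 4 of 17 lower (23.5%, against 8.91% of all genes tested), 0 higher and a median of -0.25. Without CDDP 6 of the 17 were lower, against 10.5% of all genes tested, and 0 higher, with a median of -0.23. HMGCS1, an early enzyme of the mevalonate pathway, was at 9.29 and 9.18 in siSMRT+CDDP arrays against 10.17 and 10.06 in siNCoR+CDDP arrays, and 9.43 and 9.51 in siCtl+CDDP arrays (-0.88, SE 0.108, adjusted p = 0.000299). The siNCoR arrays were the high ones here. SCD, the stearoyl-CoA desaturase, was at 10.62 and 10.73 in siSMRT+CDDP arrays against 11.71 and 11.40 in siNCoR+CDDP arrays, and 11.46 and 11.30 in siCtl+CDDP arrays (-0.88, SE 0.146), so for SCD the siSMRT arrays were the low ones. Lanosterol synthase LSS (-0.56) and the isomerase IDI1 (-0.58) were lower as well, IDI1 without a call under median scaling (-0.53, adjusted p = 0.0616). It had none without siSMRT+CDDP replicate 1 (-0.57, adjusted p = 0.101), siSMRT+CDDP replicate 2 (-0.60, adjusted p = 0.0837) or siNCoR+CDDP replicate 1 (-0.48, adjusted p = 0.138).

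Of 21 matrix and adhesion genes 5 were lower (23.8%, against 8.91% of all genes tested) and 1 higher (4.76%, against 7.28%), with a median of -0.03. COL5A2, a fibrillar collagen chain, was at 7.67 and 7.44 in siSMRT+CDDP arrays against 8.77 and 8.61 in siNCoR+CDDP arrays (-1.14, SE 0.128). LAMC1, the laminin gamma 1 chain, was at 10.38 and 10.35 in siSMRT+CDDP arrays against 11.54 and 11.24 in siNCoR+CDDP arrays (-1.03, SE 0.108, adjusted p = 0.000137). COL3A1 was under the floor in both siSMRT+CDDP arrays and at least 2.12-fold lower there, ITGAV and CDH2 were lower by smaller amounts (-0.46 and -0.39), and COL6A3 was higher (0.72). The replicate block gave 3 higher. Without siSMRT+CDDP replicate 1 or either siNCoR+CDDP array 3 members were lower, and 0 were higher without either siSMRT+CDDP array or siNCoR+CDDP replicate 1. CDH2 was at -0.29 (adjusted p = 0.196) without siSMRT+CDDP replicate 1. The list median turned to 0.08 under median scaling.

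In the unfolded protein response list 2 of 19 were lower, 10.5% and near the 8.91% of all genes tested, and 0 higher, with a median of -0.02 (0.11 under median scaling). HSPA5, the endoplasmic reticulum chaperone BiP whose promoter is printed above, was at 9.38 and 9.17 in siSMRT+CDDP arrays against 10.38 and 10.36 in siNCoR+CDDP arrays, and 10.08 and 9.95 in siCtl+CDDP arrays. Every siSMRT array was below every other (-1.10, SE 0.102, adjusted p = 6.77e-05). PDIA4, a disulfide isomerase of the same compartment, was at 6.38 and 6.19 in siSMRT+CDDP arrays against 6.85 and 7.01 in siNCoR+CDDP arrays (-0.64, SE 0.0995). HSP90B1, whose promoter holds the element at 2 positions, was at 13.72 and 13.73 in siSMRT+CDDP arrays against 13.86 and 13.73 in siNCoR+CDDP arrays. Heat shock genes gave 0 calls of 14 in limma, with 3 at an unadjusted p under 0.05. The replicate block called HSF1 (0.36) higher and DNAJB4 (-0.38) and BAG3 (-0.30) lower. The list had a median of -0.13 that turned to 0.04 under median scaling.

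Of 20 TGF-beta and SMAD genes 2 were higher (10%, against 7.28% of all genes) and 3 lower (15%, against 8.91%). TGFB2, a ligand, was at 8.41 and 8.62 in siSMRT+CDDP arrays against 7.63 and 7.403 in siNCoR+CDDP arrays, and 8.15 and 8.34 in siCtl+CDDP arrays (0.998, SE 0.179, adjusted p = 0.00288). SMAD3, a receptor-activated SMAD, was at 9.51 and 9.49 in siSMRT+CDDP arrays against 8.89 and 8.86 in siNCoR+CDDP arrays (0.62, SE 0.087). PMEPA1, a target gene that feeds back on SMAD signalling, was at 9.03 and 9.05 in siSMRT+CDDP arrays against 10.19 and 10.04 in siNCoR+CDDP arrays (-1.08, SE 0.189), with -1.04 and -0.20 from its other probes. The co-SMAD SMAD4 (-0.43) and the ubiquitin ligase SMURF1 (under the floor in both siSMRT+CDDP arrays, with no difference given) were lower too. With either siSMRT+CDDP array or siNCoR+CDDP replicate 1 left out 1 member was lower, SMAD4 being at -0.39 (adjusted p = 0.165), -0.46 (adjusted p = 0.101) and -0.33 (adjusted p = 0.209). Among Notch and Hedgehog genes JAG2, a ligand (0.34), and RBPJ, the DNA-binding effector of Notch (0.37), were higher and NOTCH2 lower (-0.42, against 0.01 for its second probe). These were 3 of 15 Notch and Hedgehog genes, 20% against 16.2% of all genes tested. There were 0 calls with median scaling or without siSMRT+CDDP replicate 1 or 2, 1 higher without siNCoR+CDDP replicate 1 and 1 lower without siNCoR+CDDP replicate 2. The replicate block gave 5 higher and 2 lower. Of 13 interferon response genes the antiviral factors OAS3 (0.52) and BST2 (0.39) were higher, and of 21 oxidative phosphorylation genes COX7B (0.37) and UQCRB (0.33) were higher and NDUFB3 (-0.35) lower. The calls were 15.4% of the interferon list and 14.3% of the oxidative phosphorylation list, near the 16.2% of all genes tested. A second UQCRB probe gave -0.44 (adjusted p = 0.0607 over all probes), and the first was not called with median scaling (adjusted p = 0.0517), with no filter (0.0972) or with only the arrays compared (0.066). Without either siSMRT+CDDP array or siNCoR+CDDP replicate 1 both lists had 0 calls, and without siNCoR+CDDP replicate 2 each had 1, higher.

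**Figure D3:**
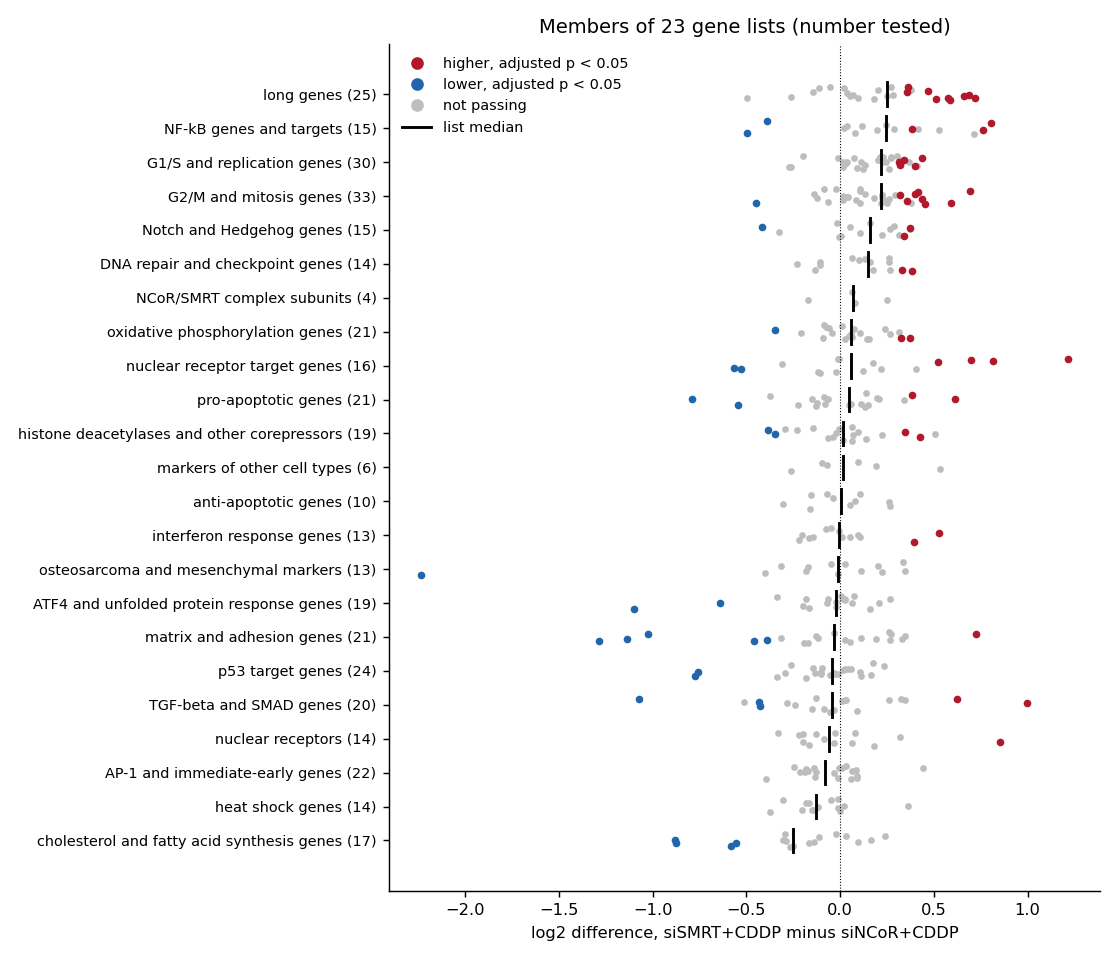
Log2 differences (x axis) of the members of 23 gene lists (rows, with the number tested); coloured points passed an adjusted p of 0.05, grey points did not, and the vertical bar is the list median. The medians run from -0.25 for sterol and fatty acid synthesis to 0.25 for long genes, and most members of every list lie within 0.5 units of 0.

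Of 25 genes on a list of long genes 9 were higher (36%, against 7.28% of all genes tested) and 0 lower. The list was chosen with earlier results of these data known, so its share does not stand for long genes at large. Differences above 0 numbered 20 and the median was 0.25. JARID2, a partner of Polycomb repressive complex 2, was at 7.05 and 6.80 in siSMRT+CDDP arrays against 6.38 and 6.32 in siNCoR+CDDP arrays, and 6.54 and 6.47 in siCtl+CDDP arrays (0.58, SE 0.102, adjusted p = 0.00269). Without CDDP it differed by 0.02, but the change with CDDP did not pass, as for all 9808 genes tested. ZMIZ1, a SMAD and androgen receptor coactivator, was at 7.99 and 7.77 in siSMRT+CDDP arrays against 7.11 and 7.22 in siNCoR+CDDP arrays (0.72, SE 0.167), and NAV2 (0.69), PTPRG (0.59) and ZBTB20 (0.51) were higher too. When all genes with a known length were cut into 10 equal parts by length, 14.8% of the longest part (median 233.1 kb) were higher and 8.47% lower. The next 2 parts had no such excess, with 10.5% higher and 10.8% lower at a median of 111.7 kb and 9.8% higher and 12.8% lower at 70.08 kb. Of the shortest part (median 2.89 kb) 4.49% were higher and 4.28% lower, and without CDDP the longest part had 10.8% higher and 11.9% lower. The longest part's median difference was 0.06, with 0.09 in the first pair of arrays and 0.05 in the second, and the shift of that median with CDDP was not tested. The list count was 2 without siSMRT+CDDP replicate 1 or siNCoR+CDDP replicate 1, 6 and 5 when replicate 2 of siSMRT+CDDP or of siNCoR+CDDP was the array left out, with ZMIZ1 at 0.61 (adjusted p = 0.0999) and 0.66 (adjusted p = 0.0734) and NAV2 at 0.65 (adjusted p = 0.0523) and 0.62 (adjusted p = 0.0516) in the first 2 cases.

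**Figure D4:**
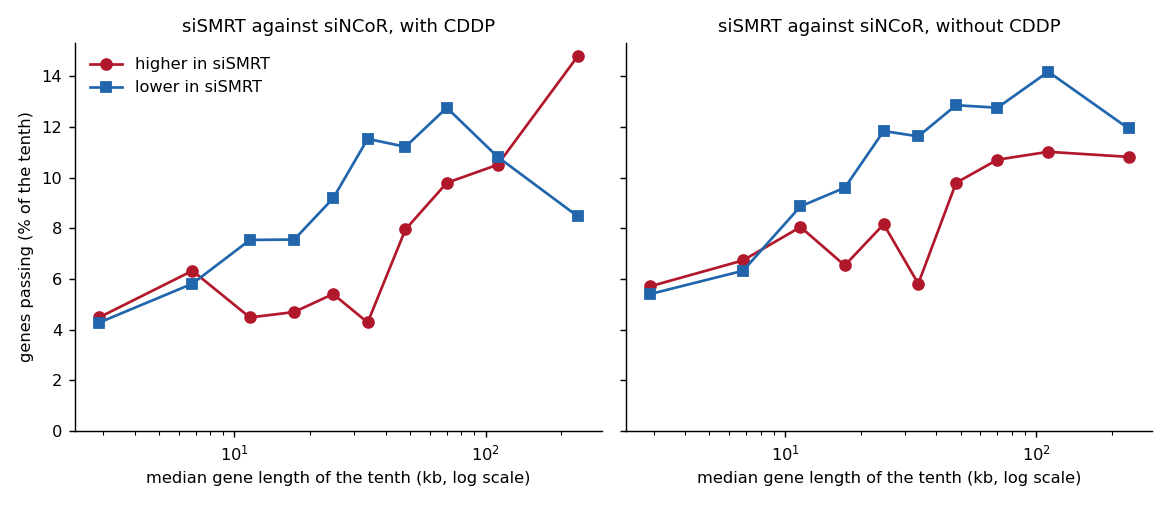
Share of genes passing (y axis, % of each of 10 equal parts) against the median gene length of the part (x axis, kb, log scale), higher and lower in siSMRT than in siNCoR, with CDDP (left) and without (right). With CDDP the share of higher genes reaches 14.8% in the longest part, above the 8.47% lower there, while without CDDP that part has 10.8% higher and 11.9% lower.

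The same comparison without CDDP asks whether the siRNA difference depends on damage, and it uses 4 arrays that are not in the comparison above. In siSMRT cells labelled no-treatment, 818 genes were higher (8.34%) and 1033 lower (10.5%) than in siNCoR no-treatment cells. Of the genes called with CDDP, 446 of the higher (62.5% of 714, and 54.5% of the 818) and 677 of the lower (77.5% of 874, and 65.5% of the 1033) were called the same way without it, and 1 was called the opposite way. The differences of 98.5% of the higher and 98.7% of the lower genes had the same sign. Over the 9808 genes, which are not independent of each other and share their probes, the differences with and without CDDP correlated at 0.85. For single pairs of arrays, those with and without CDDP correlated at 0.721 to 0.773 and the 2 CDDP pairs with each other at 0.762. SPP1, OLR1 and CYBRD1 differed by -2.23, -2.12 and -1.68 with CDDP, against -2.27, -2.21 and -1.86 without it.

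The difference of differences, with CDDP minus without, passed for 0 of 9808 genes in limma, and 336 had an unadjusted p under 0.05. The replicate block also gave 0, with 562 at an unadjusted p under 0.05. Without the block, the median SE of the difference of differences was 0.161, against 0.114 for a single difference, so smaller shifts may be missed. The smallest p belonged to ZXDA, a zinc finger gene on chromosome X, which differed by 0.02 with CDDP and by 1.09 without it (-1.07, SE 0.163, adjusted p = 0.255). The other ZXDA probes differed by 0.58 (adjusted p = 0.0305 over all probes) and 0.38 (adjusted p = 0.0532) with CDDP, so the probes disagree. GNAI3, an inhibitory G protein subunit, was at 8.79 and 8.88 in siSMRT+CDDP arrays against 8.33 and 8.33 in siNCoR+CDDP arrays, and without CDDP at 9.14 and 9.22 with siSMRT against 9.38 and 9.47 with siNCoR. Its difference was 0.51 with CDDP and -0.25 without (0.76, SE 0.124, adjusted p = 0.259). USP48 (0.82), CMIP (0.76) and C21orf91 (-0.74) followed, none passing. For MTX2 the difference was 1.57 with CDDP and 1.05 without, and the change did not pass (0.52, SE 0.141).

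**Figure D5:**
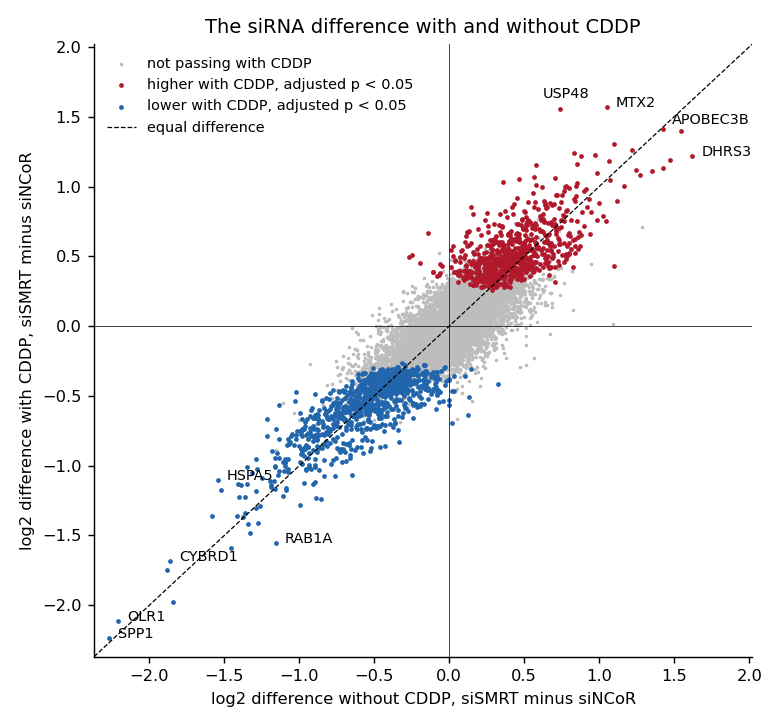
Log2 difference of siSMRT minus siNCoR for each of 9808 genes without CDDP (x axis) and with CDDP (y axis); colours mark genes called with CDDP and the dashed line marks an equal difference. Most called genes follow the dashed line, with SPP1 and OLR1 at its lower end and USP48 above it.

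Against the scramble siRNA under CDDP, siSMRT+CDDP differed at 1696 genes (17.3%) and siNCoR+CDDP at 645 (6.58%), with the same siCtl+CDDP arrays in both comparisons. Relative to siCtl+CDDP, 774 genes were higher (7.89%) and 922 lower (9.4%) in siSMRT cells, and 342 higher (3.49%) and 303 lower (3.09%) in siNCoR cells. With the replicate block the siSMRT counts were 1188 (12.1%) and 1322 (13.5%) and the siNCoR counts 637 (6.49%) and 615 (6.27%). In the siNCoR comparison 37 genes were higher and 8 lower by at least 1 unit, SPP1, STMN2 and EFR3B among the higher and MTX2 and USP48 among the lower, while in the siSMRT comparison 17 were higher and 27 lower by as much, CYBRD1, PIGS and RAB1A among the lower. The siNCoR counts fell to 129 and 94 without siNCoR+CDDP replicate 2, and the siSMRT counts to 296 and 427 without siSMRT+CDDP replicate 1 and to 329 and 428 without siSMRT+CDDP replicate 2.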

How the data were processed

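The authors deposited linear probe intensity values for each of the 12 arrays, 48803 probes each, with array medians that differ and no normalization stated. BeadStudio is named in the submitters' processing notes (version not given in the sources used here). They also deposited their own normalised intensity values, made per their methods with Corgon and multi-loess over all conditions at once, which served as an alternative. Low signals carry more error, since background dominates them, and the number of arrays limits the precision.

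Values were corrected with normexp (offset 16), quantile normalised and put on the log2 scale in limma 3.58.1 (R 4.3.3), and a probe was kept where both arrays of some group were over 100. The probe table gives 1 gene for 27578 probes, several for 13 and none for 21212. The brightest probe stands for each of the 2333 genes with several. Of 393 called genes with several probes, 74 have a probe of opposite sign and 15 a probe called the opposite way. The fit has 1 coefficient per group over all 12 arrays (6 residual degrees of freedom). It was also run on simulated data with independent noise between arrays, so that run does not cover the pairing described below. An exact permutation test of 2 against 2 arrays cannot go below a two-sided p of 0.333.

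Replicate numbers come from the titles. Deviations from group means correlated for arrays of equal number (0.203 to 0.42 over 15 group pairs, every one positive), so the numbers pair the arrays, and the replicate number as a block was an alternative. Others were background, scaling, filter, probe choice, variance prior and leaving out each array.

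The genes named are the 14 largest rises and falls that passed in both pairs, up to 4 members per list by p, genes the study followed, the 5 of smallest p for the difference of differences, and their other probes. SREBF1, TGM2, REL, CDC25C, MCM2, COL6A3, ITGAV, SMURF1, PTPRG, ZBTB20, HSP90B1 and XBP1 were added after their values were seen. The rule also named the targeted genes, which are not reported here. The comparison and the 23 gene lists were chosen with earlier results of these data known. An interval of 95% is from the fit. Gene lengths, promoters and symbols are from RefSeq. Figures used Python 3.11.15, pandas 2.3.3 and matplotlib 3.10.9.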

Additional observations from a re-analysis of the deposited data

How the results depend on the processing

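Leaving out 1 array moved the counts of siSMRT+CDDP against siNCoR+CDDP to between 331 and 722 higher and between 486 and 873 lower. The median SE was then 0.136 to 0.141 where a compared array was missing, against 0.114 with all arrays. Without CDDP the counts ran from 319 to 870 higher and from 549 to 1068 lower, for siSMRT+CDDP against siCtl+CDDP from 296 to 801 and from 427 to 977, and for siNCoR+CDDP against siCtl+CDDP from 129 to 334 and from 94 to 298. Median scaling gave 412 lower with CDDP, 222 higher without, 353 higher and 531 lower for siSMRT+CDDP against siCtl+CDDP, and 137 higher for siNCoR+CDDP against siCtl+CDDP. It moved the median of all genes to 0.09. With no filter on signal, over 18665 genes, there were 482 higher without CDDP, 465 higher and 582 lower for siSMRT+CDDP against siCtl+CDDP, and 213 and 162 for siNCoR+CDDP against siCtl+CDDP. Fitting only the arrays compared gave 531 higher and 631 lower for siSMRT+CDDP against siNCoR+CDDP, over 9099 genes. For siNCoR+CDDP against siCtl+CDDP it gave 127 and 95. The difference of differences stayed at 0 calls in every alternative run.

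The replicate block gave 1066 higher and 1187 lower with CDDP, 1236 higher without CDDP (1304 with only the arrays compared), 1188 higher for siSMRT+CDDP against siCtl+CDDP, and 637 and 615 for siNCoR+CDDP against siCtl+CDDP. All 1588 called genes kept their call under the block.

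Of 126 named genes 85 were called, 46 of these under all 24 alternatives and 39 not under some. No called gene turned its sign. Uncalled genes that did, each over the fits without 1 array, were HDAC3 (from -0.0112 without siNCoR+CDDP replicate 2 to 0.165 without siNCoR+CDDP replicate 1), FOS (from -0.0828 without siSMRT+CDDP replicate 1 to 0.261 without siSMRT+CDDP replicate 2), SMAD7 (from -0.265 without siSMRT+CDDP replicate 2 to 0.159 without siSMRT+CDDP replicate 1, and 0.0106 without siNCoR+CDDP replicate 1), MAX (from -0.0763 without siSMRT+CDDP replicate 2 to 0.246 without siSMRT+CDDP replicate 1) and ZXDA (from -0.12 without siSMRT+CDDP replicate 1 to 0.152 without siSMRT+CDDP replicate 2, and -0.0569 without siNCoR+CDDP replicate 2). The cause was not tested. With 2 arrays per group the spread is borrowed from the other groups, and 233 genes tested were under the floor in all 4 arrays compared.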
